A study of Mus musculus with 18 samples.

Results

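The cadherin switch is the exchange of the epithelial adhesion protein E-cadherin for mesenchymal cadherins when epithelial cells become mesenchyme. It is described here for 6 classical cadherin genes, Cdh1, Cdh2, Cdh3, Cdh4, Cdh6 and Cdh11, in mouse cells driven toward ectomesenchyme, the face-forming mesenchyme of neural crest origin. The genes were chosen by name, with earlier results of these data known. Their rows were found by symbol, 6 of 26157 symbols in the day-2 count table and 6 of 54114 in the table of days 8 and 16. All 6 passed the filter on low counts in both tables.

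RNA was sequenced from a mouse embryonic stem (ES) cell line with a tdTomato reporter at Msx1, a homeobox gene of craniofacial mesenchyme, and from embryoid bodies (EBs), the cell aggregates formed from it in hanging drops. At day 2 there were 2 libraries of EBs with inducible Dlx2 under 1 µg/ml doxycycline and 2 of EBs with inducible GFP under the same dose. Cells with inducible Dlx2 and doxycycline were also sorted by flow cytometry into Msx1+ and Msx1- fractions at day 16 and at day 8, with 2 libraries of each fraction at each day, and 2 libraries labelled as untreated wild-type ES cells stand in the same table. Every sorted cell therefore came from an induced Dlx2 culture, and days 8 and 16 have no GFP or uninduced group. The labels hold 18 samples, of which the 4 of the uninduced day-2 groups were not analysed here.

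Classical cadherins are membrane proteins that join neighbouring cells by binding like molecules across the gap, and they hold the actin skeleton through catenins on their inner side. Cdh1 encodes E-cadherin, the adhesion protein of epithelia and of ES cell colonies, and Cdh3 encodes P-cadherin, found mostly in epithelia and placenta. Cdh2 (N-cadherin) and Cdh4 (R-cadherin) belong to the same type I family and are known from neural and mesenchymal tissue. Cdh6 (K-cadherin) and Cdh11 (OB-cadherin) are type II cadherins: Cdh6 is known from the neural tube, early neural crest and kidney, and Cdh11 from migrating neural crest and the mesenchyme of face and bone.

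Of the 6 genes, 1 had an entry in the RefSeq promoter table (GRCm38.p6), Cdh6, which gained reads within 2 days of Dlx2 induction. Its sequence is shown because it is where a factor acting on Cdh6 could bind. Printed are the 250 bases before the transcription start, chr15:13173676-13173925 on the minus strand, 5′ to 3′. Capitals mark the match to the E-box CANNTG, the general form bound by factors of the Twist kind.
Cdh6: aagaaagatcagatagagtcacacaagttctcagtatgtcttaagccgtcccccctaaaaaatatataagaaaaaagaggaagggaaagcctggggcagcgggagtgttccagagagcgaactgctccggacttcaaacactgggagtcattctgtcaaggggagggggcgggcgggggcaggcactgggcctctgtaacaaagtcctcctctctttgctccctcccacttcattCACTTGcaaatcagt
This window has a GC content of 51.2% and overlaps no annotated exon. CANNTG was matched once, at position -15 from the start, and 66.2% of 32851 promoters of this length hold at least 1 such match. The narrower Snail and ZEB letters CAGGTG, one form of CANNTG, read on both strands, and the homeodomain cores TAATTA and TAATTG, also on both strands, were not matched. Of all promoters, 17.2% hold CAGGTG, 4.84% TAATTA and 7.17% TAATTG.

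Total counts ran from 26211608 to 41552818 in the day-2 libraries and from 53797597 to 107770730 in the others, and no library repeated another. Levels are given in CPM after scaling for depth and RNA composition, and changes are log2 fold changes ± standard error (SE). The threshold for a call was an adjusted p of 0.05, and "rose", "fell", "higher" and "lower" are kept for genes past it. The labels do not state that replicates came from separate cultures, so p-values measure the spread between libraries, and 2 libraries against 2 could not give an exact p below 0.333 from 1 gene alone. In these bulk samples fewer cells of a type and less RNA per cell cannot be told apart.

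The labels were checked with the induced and the sorting gene. Dlx2 stood at 4344 and 4720 CPM in Dlx2 EBs, against 0.0812 and 0.0808 CPM (2 reads in each library) in GFP EBs. Msx1 stood at 73.7 and 81.6 CPM in Msx1+ cells of day 16, against 0.818 and 0.752 CPM in Msx1- cells, and at 40.9 and 46.8 CPM in Msx1+ cells of day 8, against 1.90 and 1.02 CPM in Msx1- cells. Dlx2 itself differed between the fractions, at 1137 and 1270 CPM in Msx1+ cells of day 8, against 269 and 272 CPM in Msx1- cells, and at 288 and 341 CPM in Msx1+ cells of day 16, against 131 and 146 CPM in Msx1- cells. The libraries labelled ES held Dlx2 at 219 and 222 CPM, which goes against a label of untreated wild-type cells, so they are called the libraries labelled ES throughout.

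On GRCm38 with GENCODE vM21, Cdh3 (chromosome 8, 106510891 to 106557297, plus strand) lies 46.05 kb before Cdh1 (chromosome 8, 106603351 to 106670246, plus strand), with 2 annotated genes between them. Cdh11 is farther off on the same chromosome (102632095 to 102785642, minus strand). Cdh2 lies on chromosome 18 (16588877 to 16809246, minus strand), Cdh4 on chromosome 2 (179442431 to 179899373, plus strand) and Cdh6 on chromosome 15 (13028701 to 13173675, minus strand). None of the 6 shares annotated exon bases with another gene.

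With 2 days of Dlx2, all 6 cadherins were called. Cdh2, Cdh4, Cdh6 and Cdh11 rose while Cdh1 and Cdh3 fell, against a background of 34.1% of 18650 genes called higher and 33% called lower (67.2% in all). At day 8, 3 cadherins were higher and 2 lower in Msx1+ cells than in Msx1- cells, against 30.4% and 24.3% of 22294 genes (54.7% in all). At day 16 the counts were again 3 higher and 2 lower, against 31.1% and 31% (62.1% in all). With this many genes called, a call alone sets a gene little apart, and the sizes of the changes are given for each gene.

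**Figure D1:**
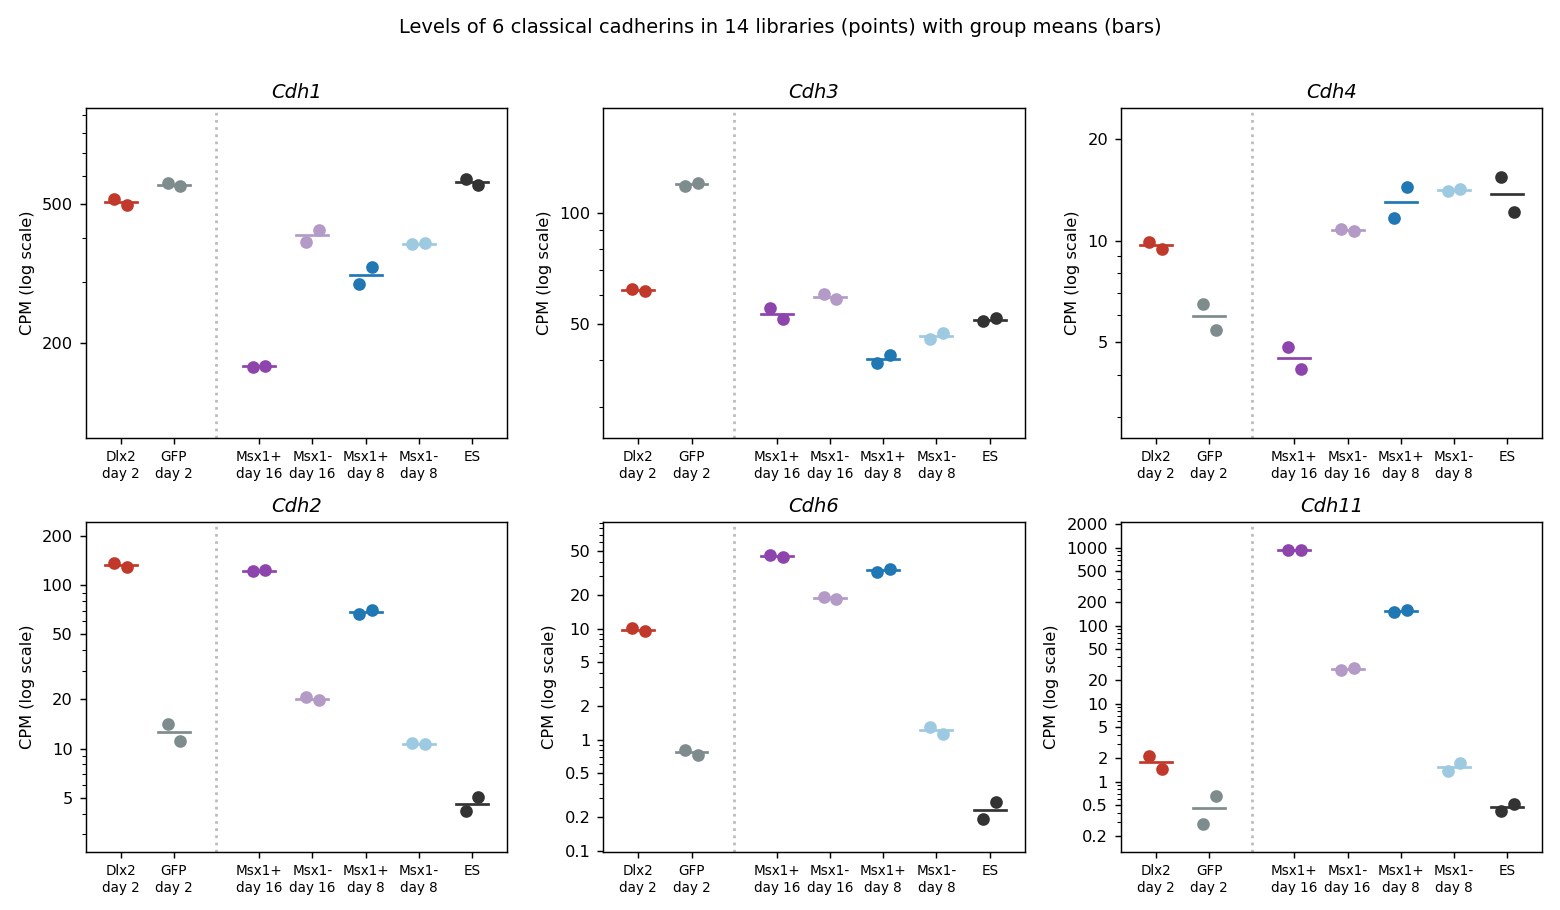
Level of each cadherin in CPM (log axis) in each of 14 libraries (points), with the mean of the 2 libraries of a group (bars). The dotted line parts the day-2 table from the other, since the tables were scaled separately. Cdh11 spans 0.424 to 940 CPM in the right-hand table, while Cdh3 spans 39.3 to 60.4 CPM there.

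Cdh1, the epithelial cadherin, was lowest in Msx1+ cells of day 16 and was never lost. It stood at 171 and 172 CPM in these cells, against 391 and 422 CPM in Msx1- cells of the same day, a change of -1.24 ± 0.06 (2.37-fold lower, adjusted p = 3.35e-10). At day 8 it stood at 296 and 330 CPM in Msx1+ cells, against 385 and 386 CPM in Msx1- cells (-0.30 ± 0.06, 1.23-fold lower, adjusted p = 0.000846). The fractions did not overlap on either day, and the gap between them widened by 0.94 ± 0.09 log2 units toward lower levels in Msx1+ cells (change of the difference -0.94, adjusted p = 2.09e-06). That widening came with a fall within the Msx1+ fraction, by 0.86 ± 0.06 at day 16 relative to day 8 (adjusted p = 4.33e-08). In the Msx1- fraction day 16 was not called against day 8 (0.08 ± 0.06, adjusted p = 0.388).

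The libraries labelled ES had the highest Cdh1 of their table, 588 and 567 CPM. Relative to them, Cdh1 was lower in all 4 sorted groups, by 3.36-fold in Msx1+ cells of day 16 and by 1.42-fold in Msx1- cells of that day. Mean Cdh1 in Msx1+ cells of day 16 was 29.8% of the mean of the libraries labelled ES. The summed level of 6 ES cell markers (Pou5f1, Nanog, Sox2, Zfp42, Esrrb and Dppa5a) was 2.69% in the same cells, at 117 to 124 CPM in Msx1+ cells of day 16, against 4413 to 4567 CPM in the libraries labelled ES. At day 8 the Msx1+ fraction kept 54.2% of Cdh1 and 20.3% of the summed ES cell markers. In Msx1- cells Cdh1 was at 70.4% and the markers at 61.1% at day 16, and Cdh1 at 66.8% and the markers at 84.5% at day 8. Relative to the libraries labelled ES, Cdh1 thus stood higher than the summed markers in both Msx1+ groups and in Msx1- cells of day 16, and lower in Msx1- cells of day 8.

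The same ES cell markers parted the 2 fractions together with Cdh1. They summed to 117 to 124 CPM in Msx1+ cells of day 16, against 2640 to 2848 CPM in Msx1- cells, and to 898 to 927 CPM in Msx1+ cells of day 8, against 3769 to 3819 CPM in Msx1- cells, with all 6 lower on both days and none at 0. Their part in the Cdh1 difference was not tested.

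At day 2 the fall of Cdh1 was small. It stood at 518 and 498 CPM in Dlx2 EBs, against 574 and 562 CPM in GFP EBs, and the groups did not overlap (-0.16 ± 0.05, 1.12-fold lower, adjusted p = 0.00474). This call depended on the scaling: with library size alone the change was 0.01 (adjusted p = 0.822), and without Dlx2 replicate 2 it was -0.13 (adjusted p = 0.0585). The ES cell markers fell far more in the same EBs, all 6 of them, with a summed level of 870 to 903 CPM in Dlx2 EBs, against 4310 to 4362 CPM in GFP EBs.

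Cdh3, the neighbour of Cdh1 and the other epithelial member, was lower with it at day 2 and day 8 but was not called at day 16. Its difference between the fractions was not called as changed at day 16 relative to day 8 (0.05 ± 0.09, adjusted p = 0.733). At day 2 Cdh3 fell most of the 6, at 62.2 and 61.5 CPM in Dlx2 EBs, against 118 and 120 CPM in GFP EBs (-0.95 ± 0.05, 1.93-fold lower, adjusted p = 4.79e-13). At day 8 it stood at 39.3 and 41.3 CPM in Msx1+ cells, against 45.6 and 47.3 CPM in Msx1- cells (-0.21 ± 0.07, adjusted p = 0.0157). The day-8 groups do not overlap, but the call was lost with library size alone (-0.05, adjusted p = 0.536), without Msx1+ replicate 1 (-0.17, adjusted p = 0.0914) and without Msx1- replicate 2 (-0.21, adjusted p = 0.0701).

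At day 16 Cdh3 stood at 55.2 and 51.7 CPM in Msx1+ cells, against 60.4 and 58.4 CPM in Msx1- cells, and was not called (-0.15 ± 0.07, adjusted p = 0.0527). It passed the threshold there under other settings, with adjusted p values down to 0.0189. Over time Cdh3 rose in both fractions, by 0.41 ± 0.07 in Msx1+ cells at day 16 relative to day 8 (adjusted p = 0.000128) and by 0.35 ± 0.07 in Msx1- cells (adjusted p = 0.000622). The libraries labelled ES, at 51.0 and 52.0 CPM, overlapped the Msx1+ libraries of day 16. The highest group mean of Cdh3 in this table was 1.47 times the lowest, the narrowest span of the 6 genes.

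Cdh4, a type I cadherin of low level in all groups, was higher in Dlx2 EBs at day 2 and lower in Msx1+ cells at day 16. These comparisons have different controls (GFP EBs and Msx1- cells), so they do not trace a course over time. At day 2 it stood at 9.93 and 9.43 CPM in Dlx2 EBs, against 6.49 and 5.45 CPM in GFP EBs, and rose by 0.70 ± 0.14 (1.62-fold, adjusted p = 0.000149). At day 16 it stood at 4.83 and 4.18 CPM in Msx1+ cells, against 10.8 and 10.6 CPM in Msx1- cells, and fell by 1.25 ± 0.13 (2.39-fold, adjusted p = 8.79e-07). Neither pair of groups overlaps.

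At day 8 Cdh4 stood at 11.7 and 14.4 CPM in Msx1+ cells, against 13.98 and 14.17 CPM in Msx1- cells, which overlap, and it was not called (adjusted p = 0.469). The difference between the fractions changed by -1.14 ± 0.18 at day 16 relative to day 8 (adjusted p = 0.00022). In Msx1+ cells Cdh4 fell by 1.54 ± 0.13 at day 16 relative to day 8 (adjusted p = 1.91e-07). In Msx1- cells its fall of 0.39 ± 0.12 (adjusted p = 0.0216) was lost with library size alone (-0.32, adjusted p = 0.0529) and without any 1 of the 4 Msx1- libraries (adjusted p from 0.0651 to 0.0892).

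Cdh2, the gene whose gain defines the classic switch, was higher in Dlx2 EBs within 2 days. It stood at 136 and 129 CPM in Dlx2 EBs, against 14.1 and 11.2 CPM in GFP EBs, a change of 3.38 ± 0.08 (10.4-fold, adjusted p = 9.99e-20). Both Dlx2 libraries lay far above both GFP libraries. Of the 18650 genes tested, 607 had a larger log2 change.

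In the sorted cells Cdh2 marked the Msx1+ fraction by about the same ratio on both days. It stood at 122 and 123 CPM in Msx1+ cells of day 16, against 20.6 and 19.8 CPM in Msx1- cells (2.6 ± 0.07, 6.07-fold, adjusted p = 1.35e-13). It stood at 66.8 and 70.4 CPM in Msx1+ cells of day 8, against 10.8 and 10.7 CPM in Msx1- cells (2.68 ± 0.07, 6.39-fold, adjusted p = 2.48e-13). The difference between the fractions was not called as changed (-0.07 ± 0.09, adjusted p = 0.599), although with library size alone it was (-0.26, adjusted p = 0.0378).

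Both fractions gained Cdh2 over time. The rise at day 16 relative to day 8 was 0.84 ± 0.06 in Msx1+ cells (1.79-fold, adjusted p = 3.45e-08) and 0.91 ± 0.07 in Msx1- cells (1.88-fold, adjusted p = 1.13e-07). The libraries labelled ES had the least, 4.17 and 5.02 CPM. The group order, Msx1+ of day 16, Msx1+ of day 8, Msx1- of day 16, Msx1- of day 8 and the libraries labelled ES, had no overlap between neighbours. The 8 neural markers summed to 238 to 253 CPM in Msx1+ cells of day 16, against 125 to 132 CPM in Msx1- cells. Of these markers 3 were higher, 4 lower and none at 0, beside 31.1% of all genes higher and 31% lower. In the libraries labelled ES the neural markers summed to 132 to 142 CPM. The part of these markers in the Cdh2 level was not tested.

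Cdh6, a type II cadherin of early neural crest, had the largest log2 change of the 6 at day 2. It stood at 10.04 and 9.52 CPM in Dlx2 EBs, against 0.812 and 0.727 CPM in GFP EBs, which is 443 and 329 reads in Dlx2 EBs, against 20 and 18 in GFP EBs. The change was 3.66 ± 0.21 (12.7-fold, adjusted p = 4.96e-13), and the groups did not overlap. This is the gene whose upstream sequence is printed above.

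At day 8 Cdh6 was far higher in the Msx1+ fraction, at 32.5 and 34.1 CPM in Msx1+ cells, against 1.30 and 1.13 CPM in Msx1- cells (4.77 ± 0.11, 27.3-fold, adjusted p = 9.17e-14). At day 16 it stood at 45.8 and 43.8 CPM in Msx1+ cells, against 19.4 and 18.5 CPM in Msx1- cells (1.24 ± 0.08, 2.36-fold, adjusted p = 3.94e-09). The difference between the fractions shrank by 3.53 ± 0.14 log2 units, the largest such change among the 6 (change of the difference -3.53, adjusted p = 2.63e-10).

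Cdh6 rose in both fractions, more in Msx1- cells. There it rose 15.6-fold at day 16 relative to day 8 (3.96 ± 0.11, adjusted p = 2.42e-12), while in Msx1+ cells it rose 1.34-fold (0.42 ± 0.08, adjusted p = 0.00036). Several marker lists were also higher in Msx1- cells of day 16 than of day 8, when 19.7% of all genes were called higher. The summed level of 8 markers of definitive and primitive endoderm was 389 to 402 CPM in Msx1- cells of day 16, against 34.2 to 36.0 CPM in Msx1- cells of day 8, and all 8 were called higher. The 6 nephric markers summed to 32.0 to 34.3 CPM at day 16, against 15.1 to 15.3 CPM at day 8, with 3 called higher and 1 lower. The 8 mesenchyme markers summed to 687 to 764 CPM at day 16, against 61.9 to 63.7 CPM at day 8, with 8 called higher. The 6 endothelial markers summed to 231 to 252 CPM at day 16, against 199 to 203 CPM at day 8 (5 higher, 1 lower), the 6 surface ectoderm markers to 188 to 192 CPM, against 146 to 153 CPM at day 8 (5 higher, 0 lower), and the 6 trophectoderm markers to 268 to 272 CPM, against 177 to 186 CPM at day 8 (4 higher, 0 lower). In the libraries labelled ES the endothelial markers summed to 124 to 129 CPM, the surface ectoderm markers to 95.2 to 106 CPM. The trophectoderm markers summed to 69.9 to 77.3 CPM there, and the endoderm, nephric and mesenchyme markers to at most 4.86, 7.62 and 12.4 CPM. No marker of these 6 lists was at 0 in either Msx1- group, and the part of these cells in the rise of Cdh6 was not tested.

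Cdh11, the cadherin of cranial and skeletal mesenchyme, had the widest span of the 6 in the days 8 and 16 table. At day 2 it was close to the limit of counting, with 94 and 50 reads in Dlx2 EBs, against 7 and 16 reads in GFP EBs, or 2.13 and 1.45 CPM against 0.284 and 0.646 CPM in GFP EBs. The change was 1.95 ± 0.40 (3.85-fold, adjusted p = 0.000193). Leaving out 1 library at a time gave changes from 1.46 to 2.64, the largest without GFP replicate 2.

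At day 8 Cdh11 stood at 149 and 161 CPM in Msx1+ cells, against 1.36 and 1.74 CPM in Msx1- cells (6.65 ± 0.10, 100-fold, adjusted p = 2.92e-15). At day 16 it stood at 931 and 940 CPM in Msx1+ cells, against 27.1 and 28.4 CPM in Msx1- cells (5.07 ± 0.08, 33.7-fold, adjusted p = 2.04e-15). No library of one fraction came near the other.

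Cdh11 rose in both fractions with time, by 6.04-fold in Msx1+ cells at day 16 relative to day 8 (2.6 ± 0.07, adjusted p = 9.57e-13) and by 18.0-fold in Msx1- cells (4.17 ± 0.10, adjusted p = 4.83e-13). The log2 difference between the fractions was therefore smaller at day 16, by 1.58 ± 0.12 (change of the difference -1.58, adjusted p = 3.1e-07). In the libraries labelled ES it had 22 and 26 reads (0.424 and 0.510 CPM), and Msx1+ cells of day 16 stood 10.96 ± 0.11 log2 units above them (adjusted p = 2.31e-20).

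The summed mesenchyme markers (Prrx1, Twist1, Pdgfra, Pdgfrb, Col1a1, Col1a2, Col3a1 and Postn) were higher where Cdh2, Cdh6 and Cdh11 were higher, but not in the same proportion. They came to 15959 to 17322 CPM in Msx1+ cells of day 16, against 687 to 764 CPM in Msx1- cells, and to 2016 to 2260 CPM in Msx1+ cells of day 8, against 61.9 to 63.7 CPM in Msx1- cells, with all 8 called higher on both days. The median log2 change of the markers was 5.58 at day 8 and 4.49 at day 16, while Cdh6 had 4.77 and 1.24. At day 2 the markers came to 1518 to 1537 CPM in Dlx2 EBs, against 13.8 to 14.2 CPM in GFP EBs. There 7 of 7 tested were called higher, beside 34.1% of all genes. The markers had a median log2 change of 1.96 there, far smaller than their summed difference. In the libraries labelled ES they came to 10.6 to 12.4 CPM, with Postn and Prrx1 at 0. How much of the cadherin differences goes with the number of mesenchymal cells was not tested.

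**Figure D2:**
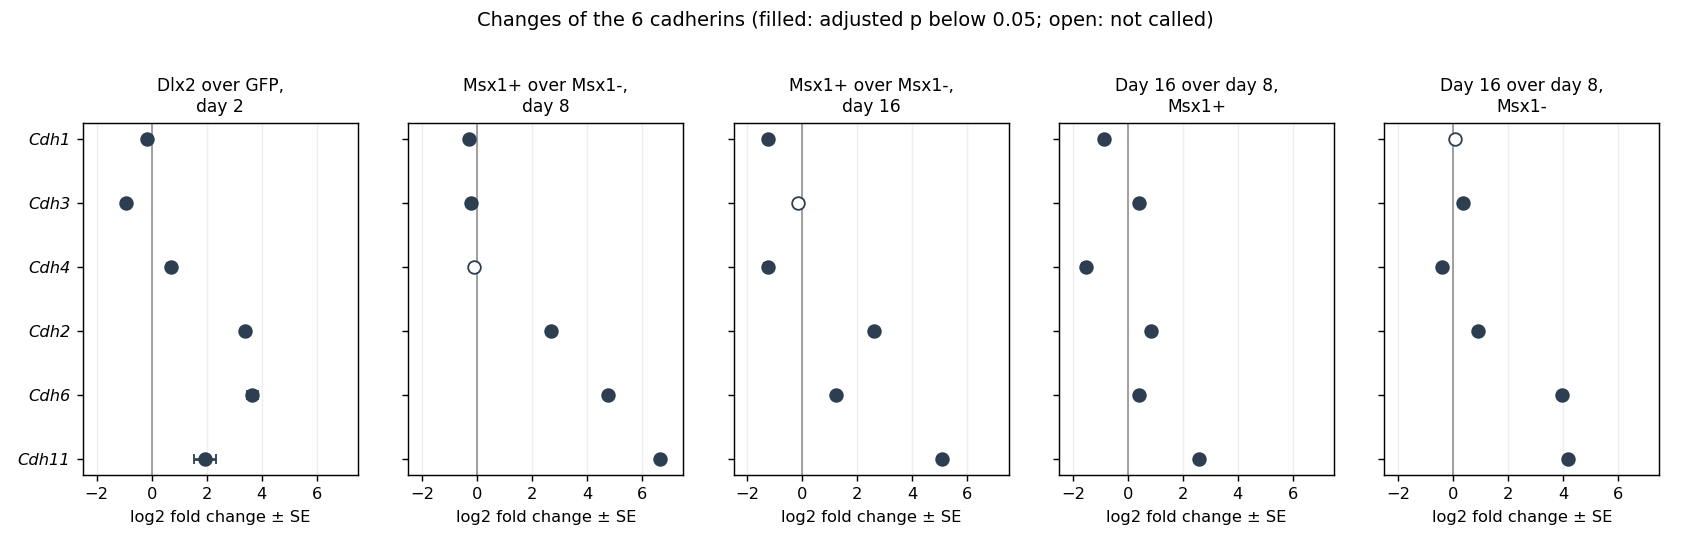
Log2 fold change ± SE (x axis) of each cadherin in 5 comparisons of 2 libraries against 2. Filled points passed an adjusted p of 0.05 and open points did not. Cdh2 lies at 3.38, 2.68 and 2.6 in the first 3 panels, while Cdh6 and Cdh11 lie farther right at day 8 (4.77 and 6.65) than at day 16 (1.24 and 5.07).

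Read over the 2 sampling days, 4 cadherins were higher and 2 lower in Msx1+ cells of day 16 than of day 8, against 21.1% of genes called higher and 24.8% lower (45.9% in all). In Msx1- cells 4 were higher and 1 lower, against 19.7% and 17.8% (37.6% in all). For the change of the difference between fractions, 0 cadherins were called higher and 4 lower (Cdh1, Cdh4, Cdh6 and Cdh11), against 10.3% of genes called higher and 18.3% lower (28.6% in all). These comparisons share libraries with each other, so they are set side by side and not counted together.

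The 4 comparisons with the libraries labelled ES share those 2 libraries, and Cdh2, Cdh6 and Cdh11 were higher in each sorted group. In Msx1+ cells of day 16, 3 cadherins were higher and 2 lower, against 37.3% of 22504 genes called higher and 33.7% lower (71% in all). The changes there were 4.74 ± 0.09 for Cdh2 and 7.57 ± 0.15 for Cdh6. In Msx1+ cells of day 8, 3 were higher and 2 lower, against 34.6% and 26.9% (61.5% in all), with changes of 3.9 ± 0.09 for Cdh2, 7.15 ± 0.15 for Cdh6 and 8.37 ± 0.11 for Cdh11.

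In Msx1- cells of day 16, 4 cadherins were higher and 2 lower than in the libraries labelled ES, against 28.5% and 24.5% of genes (53% in all). The changes were 2.14 ± 0.09 for Cdh2, 6.33 ± 0.16 for Cdh6 and 5.89 ± 0.12 for Cdh11. The 4th higher gene was Cdh3 (0.21 ± 0.06, adjusted p = 0.0127), whose call was lost without Msx1- replicate 1 (adjusted p = 0.0613) or ES replicate 1 (adjusted p = 0.0764). Cdh4 was lower there (-0.36 ± 0.13, adjusted p = 0.0329), a call lost with library size alone (-0.25, adjusted p = 0.122) and without Msx1- replicate 1 (adjusted p = 0.12), Msx1- replicate 2 (adjusted p = 0.112) or ES replicate 1 (adjusted p = 0.369).

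In Msx1- cells of day 8, 3 cadherins were higher and 1 lower, against 19% and 14.5% (33.6% in all), with changes of 1.22 ± 0.09 for Cdh2, 2.37 ± 0.23 for Cdh6 and 1.72 ± 0.19 for Cdh11. Cdh6 had 10 and 14 reads in the libraries labelled ES, so its changes rest on few counts there. All of these directions are read against libraries that hold Dlx2 reads.

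The ratio of Cdh2 to Cdh1 reads within a library needs no scaling and gives the switch as 1 value. Per 100 Cdh1 reads there were 26.2 and 25.8 Cdh2 reads in Dlx2 EBs, against 2.47 and 1.99 in GFP EBs, an 11.7-fold difference. In Msx1+ cells of day 16 there were 71.3 and 71.5, against 5.27 and 4.68 in Msx1- cells, a 14.4-fold difference. In Msx1+ cells of day 8 there were 22.6 and 21.3, against 2.80 and 2.77 in Msx1- cells, a 7.89-fold difference. The libraries labelled ES had 0.710 and 0.887, so the ratio in Msx1+ cells of day 16 was 89.9 times theirs. In no group did Cdh2 reads reach the number of Cdh1 reads.

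**Figure D3:**
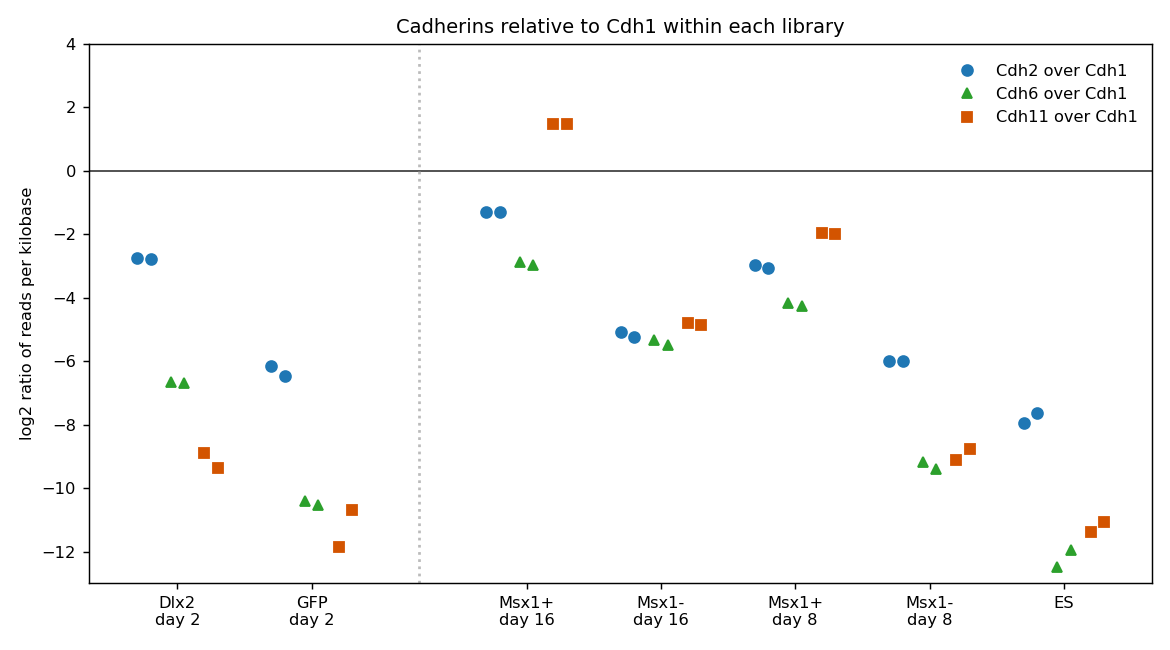
Log2 ratio of Cdh2, Cdh6 and Cdh11 to Cdh1 in reads per kilobase of exon within each library (points, 2 per group); the line at 0 marks equal levels. Cdh11 is above the line in both Msx1+ libraries of day 16 (1.48 and 1.49), and all other points are below it.

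Levels of different genes were compared per kilobase of annotated exon. In Msx1+ cells of day 16, Cdh11 was the most abundant member, at 105 and 106 CPM per kb, followed by Cdh1 at 37.5 and 37.7, Cdh2 at 15.2 and 15.3, Cdh3 at 12.6 and 11.8, Cdh6 at 5.07 and 4.85 and Cdh4 at 0.665 and 0.576 CPM per kb. None of these neighbours overlap. Cdh1 was the most abundant member in the other 6 groups, at 113 and 109 CPM per kb in Dlx2 EBs, against 125 and 123 in GFP EBs, and from 64.6 to 129 in the rest. In Dlx2 EBs Cdh2 (16.8 and 15.9 CPM per kb) had passed Cdh3 (14.18 and 14.02 CPM per kb), whereas in GFP EBs Cdh2 (1.75 and 1.39) lay far below Cdh3 (26.9 and 27.5).

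The summed level per kb was taken over all 18 type I and type II cadherins, or at day 2 over the 17 in that table, which lacks Cdh19. Of this sum, Cdh1 made up 20.3% in both Msx1+ libraries of day 16, against 67.4% and 68.8% in Msx1- libraries. Cdh2, Cdh6 and Cdh11 together made up 67.6% and 67.7% in Msx1+ cells of day 16, against 6.11% and 5.73% in Msx1- cells. At day 8 the 3 made up 25.4% and 24.8% in Msx1+ cells, against 1.52% in each Msx1- library. At day 2 they made up 11.7% and 11.5% in Dlx2 EBs, against 1.16% and 0.969% in GFP EBs, nearly all of it Cdh2. In Msx1+ cells of day 16 the summed level itself was higher, at 185 and 186 CPM per kb, against 127 and 134 in Msx1- cells. In Msx1- cells of day 16, Cdh5, the endothelial cadherin, made up 10.6% and 11.2%, overlapping Cdh3 with 10.9% and 9.92%.

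**Figure D4:**
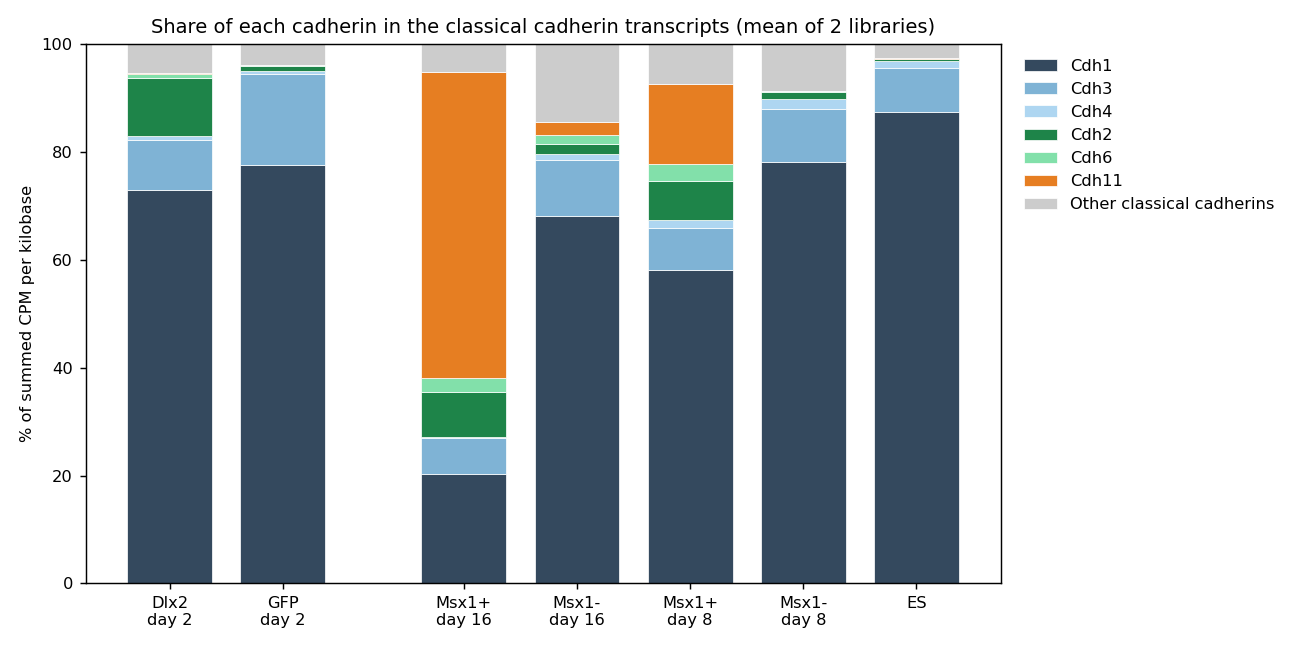
Share of each cadherin in the summed CPM per kilobase of 18 classical cadherins (17 at day 2), as the mean of 2 libraries per group (stacked bars, y axis in %). Cdh1 (dark) fills most of every bar but that of Msx1+ cells of day 16, where Cdh11 (orange) makes up 56.7% and 56.9% in the 2 libraries.

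Among the 10 libraries of days 8 and 16 and ES, the genes most like each member were found by the root-mean-square difference of centred log2 CPM over 22504 genes. Cdh1 was closest to Wwc1 (0.067), Esrp1 (0.089), an epithelial splicing regulator, and Cep85 (0.108). Cdh2 was closest to Pam (0.135), Fzd2 (0.211), a Wnt receptor, and Ttc28 (0.217). Cdh11 was closest to Ptn (0.274), a secreted growth factor, Dkk2 (0.313), a secreted Wnt modulator, and Col6a1 (0.384), a collagen VI chain.

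Cdh3 was closest to Hsp90b1 (0.069), Tor2a (0.074) and Uaca (0.077), Cdh4 to Dact2 (0.103), Tunar (0.123) and Kif5a (0.136), and Cdh6 to Pde3a (0.413), Plat (0.536) and Tgfb2 (0.555). These distances grow with a gene's own spread, which was 0.20 for Cdh3 and 4.25 for Cdh11 (SD of log2 CPM). Among the members, Cdh1 and Cdh4 were the closest pair (0.324) and Cdh1 and Cdh11 the most distant (4.55). The points are libraries of 5 groups, so likeness mostly reflects group means.

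Of the 12 other classical cadherins, 11 are in the day-2 table. At day 2, 3 of 9 tested were higher and 1 lower, with a median of 0.19 beside 0.02 over all genes, against 34.1% and 33% of all genes. With library size alone 5 were higher and 1 lower (median 0.36). Cdh20, a type II cadherin, rose most, to 5.80 and 5.53 CPM in Dlx2 EBs, against 0.203 and 0.404 CPM in GFP EBs (4.21 ± 0.30, adjusted p = 2.72e-11), followed by Cdh7 (1.32 ± 0.40) and Cdh15 (0.97 ± 0.36). Cdh7 and Cdh15 were low, at most 0.0946% and 0.341% of the summed classical cadherin level per kb in any library of day 2. Cdh5 fell to 0.249 and 0.0868 CPM in Dlx2 EBs, against 1.015 and 2.22 CPM in GFP EBs (-3.17 ± 0.53, adjusted p = 1.76e-05).

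In the sorted cells, 5 of the 12 other cadherins were higher and 1 lower at day 8 (median 0.60 beside 0.06), and 6 higher and 3 lower at day 16 (median 0.56 beside -0.02). Over all genes the shares were 30.4% higher and 24.3% lower at day 8, and 31.1% and 31% at day 16. Cdh18 (4.34 ± 0.48), Cdh10 (2.64 ± 0.18) and Cdh8 (1.24 ± 0.40) led at day 8. The size of the Cdh18 change rests on a level near 0 in Msx1- cells of day 8. There it made up 0.0066% and 0.0376% of the summed classical cadherin level per kb. Cdh8 was low too, at 0.115% and 0.133% of this sum in Msx1+ cells of day 8, against 0.0622% and 0.0531% in Msx1- cells. Cdh18 was higher at day 16 too (2.50 ± 0.41), while Cdh7, Cdh12 and Cdh19 were called from levels of at most 0.655 CPM in any library and are given without a fold. Cdh15 was lower at day 16 (-1.38 ± 0.52), from a low level. It made up 0.0864% and 0.0361% of the same sum in Msx1+ cells of day 16, against 0.294% and 0.161% in Msx1- cells.

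Cdh5 was lower in Msx1+ cells on both days. It stood at 10.3 and 10.6 CPM in Msx1+ cells of day 16, against 56.3 and 63.3 CPM in Msx1- cells (-2.51 ± 0.09), and at 5.82 and 5.83 CPM in Msx1+ cells of day 8, against 20.8 and 18.8 CPM in Msx1- cells (-1.77 ± 0.09). The 6 endothelial markers, which include Cdh5, summed to 59.3 to 66.3 CPM in Msx1+ cells of day 16, against 231 to 252 CPM in Msx1- cells. Of these markers 2 were called higher and 4 lower, beside 31.1% and 31% of all genes. In the libraries labelled ES the same markers summed to 124 to 129 CPM, with Emcn at 0.

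Catenins and plaque proteins tie cadherins to actin. At day 2, 3 of 9 tested were higher and 4 lower (median -0.06 beside 0.02), and with library size alone 5 were higher and 4 lower (median 0.12). Over all genes 34.1% were higher and 33% lower. Ctnnb1, encoding beta-catenin, stood at 639 and 629 CPM in Dlx2 EBs, against 1056 and 1060 CPM in GFP EBs (-0.74 ± 0.05, adjusted p = 3.18e-12), and Tjp1 (-0.45 ± 0.05) and Jup, encoding plakoglobin (-0.40 ± 0.05), also fell. Ctnna2, the neural alpha-catenin, rose by 1.92 ± 0.19, Ctnnd2 by 0.86 ± 0.15 and Vcl, encoding vinculin, by 0.22 ± 0.06.

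In the sorted cells, 5 of 10 catenin and plaque genes were higher and 1 lower at day 8 (median 0.27 beside 0.06), and 5 higher and 3 lower at day 16 (median 0.35 beside -0.02). The shares over all genes were 30.4% and 24.3% at day 8, and 31.1% and 31% at day 16. Ctnna2 led on both days (3.25 ± 0.23 at day 8 and 2.86 ± 0.24 at day 16), and Ctnnd2 rose on both (0.85 ± 0.16 and 0.84 ± 0.16). Vcl rose by 0.64 ± 0.06 at day 8, and at day 16 it stood at 261 and 254 CPM in Msx1+ cells, against 78.8 and 79.7 CPM in Msx1- cells (1.70 ± 0.06). Afdn, encoding afadin, fell by 0.40 ± 0.07 at day 8 and by 0.60 ± 0.07 at day 16, when Ctnna1 (-0.37 ± 0.06) and Tjp1 (-0.19 ± 0.07) fell too. Reads of Vcl cannot be parted by strand from those of Ap3m1, which shares 2090 exon bases with it.

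The 12 repressors of Cdh1 and factors of epithelial-mesenchymal transition (EMT) rose in part at day 2, with 6 higher and 3 lower (median 0.63 beside 0.02). All genes tested there were 34.1% higher and 33% lower. Gsc (3.87 ± 0.42), Twist2 (3.84 ± 0.53) and Foxc2 (3.42 ± 0.50) changed most but stayed low, with Gsc at 2.40 and 3.04 CPM in Dlx2 EBs, against 0.244 and 0.121 CPM in GFP EBs. Snai3 (-1.59 ± 0.26), Klf8 (-1.12 ± 0.09) and Tcf3 (-0.21 ± 0.05) fell. Singled out after their values were seen, the repressors Snai1 (0.20 ± 0.17, adjusted p = 0.318), Zeb1 (-0.09 ± 0.09, adjusted p = 0.394) and Zeb2 (-0.09 ± 0.15, adjusted p = 0.613) were not called at day 2.

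In the sorted cells 8 of the 12 were higher and 1 lower at day 8 (median 2.05 beside 0.06), and 10 higher and 2 lower at day 16 (median 2.14 beside -0.02). For all genes the shares were 30.4% and 24.3% at day 8, and 31.1% and 31% at day 16. Snai2, a zinc-finger repressor of Cdh1, stood at 35.5 and 42.6 CPM in Msx1+ cells of day 16, against 2.11 and 3.09 CPM in Msx1- cells (3.90 ± 0.18), and at 19.4 and 18.2 CPM in Msx1+ cells of day 8, against 1.23 and 0.758 CPM in Msx1- cells (4.22 ± 0.21). At day 8 Zeb2 (3.602 ± 0.12) and Twist2 (3.41 ± 0.29) followed it, and at day 16 Twist2 (4.81 ± 0.28) and Twist1 (3.54 ± 0.12) were among the leading 3. Klf8 fell on both days (-0.73 ± 0.10 at day 8, -1.97 ± 0.11 at day 16) and Snai3 at day 16 (-1.22 ± 0.24). Twist2 shares 1477 exon bases with Gm29100 on the other strand, and Zeb2 shares 662 with 3 other annotated genes, so some of their reads may belong to these. Zeb1, Ovol1, Ovol2, Esrp1, Grhl2, Dsp, Krt8, Ctnnb1, Ctnna1, Afdn, Cdh8, Furin and Pcsk6 also share exon bases with another gene and carry the same limit.

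The 18 epithelial partners and regulators of Cdh1 were lower at day 16 and mixed at the earlier days. At day 16, 17 of 18 were lower in Msx1+ cells and 0 higher (median -1.20 beside -0.02), with Dsp, encoding desmoplakin, not called (0.41 ± 0.15, adjusted p = 0.0547). Among all genes 31% were lower and 31.1% higher. Epcam, an adhesion protein of epithelia and ES cells, stood at 41.9 and 46.1 CPM in Msx1+ cells of day 16, against 172 and 179 CPM in Msx1- cells (-1.996 ± 0.06, adjusted p = 1.12e-12), and the epithelial repressors Ovol2 (-1.71 ± 0.21) and Ovol1 (-1.58 ± 0.31) followed.

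At day 8, 8 of the 18 were higher and 6 lower (median 0.21 beside 0.06), or 10 and 3 with library size alone. Among all genes 30.4% were higher and 24.3% lower. Dsp stood at 243 and 318 CPM in Msx1+ cells, against 70.0 and 73.7 CPM in Msx1- cells (1.96 ± 0.16, adjusted p = 3.32e-05), and Ovol1 (1.08 ± 0.28) and the keratin gene Krt8 (0.60 ± 0.05) also rose. Grhl2 (-1.455 ± 0.08), Grhl3 (-0.72 ± 0.10), factors that maintain epithelial genes, and Epcam (-0.67 ± 0.06) fell. The difference between the fractions was lower at day 16 than at day 8 for 17 of the 18 and higher for 0. It was lower for 18.3% of all genes and higher for 10.3%.

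At day 2, 7 of the 18 were higher and 11 lower (median -0.16 beside 0.02), but with library size alone 7 were higher and 6 lower (median 0.01). The main fit called 34.1% of all genes higher and 33% lower. Ovol1 (2.41 ± 0.23), the splicing regulator Esrp1 (1.43 ± 0.05) and Grhl1 (0.77 ± 0.10) rose, and the tight junction genes Cldn4 (-1.03 ± 0.05) and Cldn6 (-0.88 ± 0.06) and Grhl2 (-0.88 ± 0.09) fell. Esrp1 stood at 208 and 206 CPM in Dlx2 EBs, against 75.0 and 79.0 CPM in GFP EBs. Over the 10 libraries of the other table, the 2 labelled ES included, the same gene was the second closest to Cdh1, while at day 2 it rose and Cdh1 fell.

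**Figure D5:**
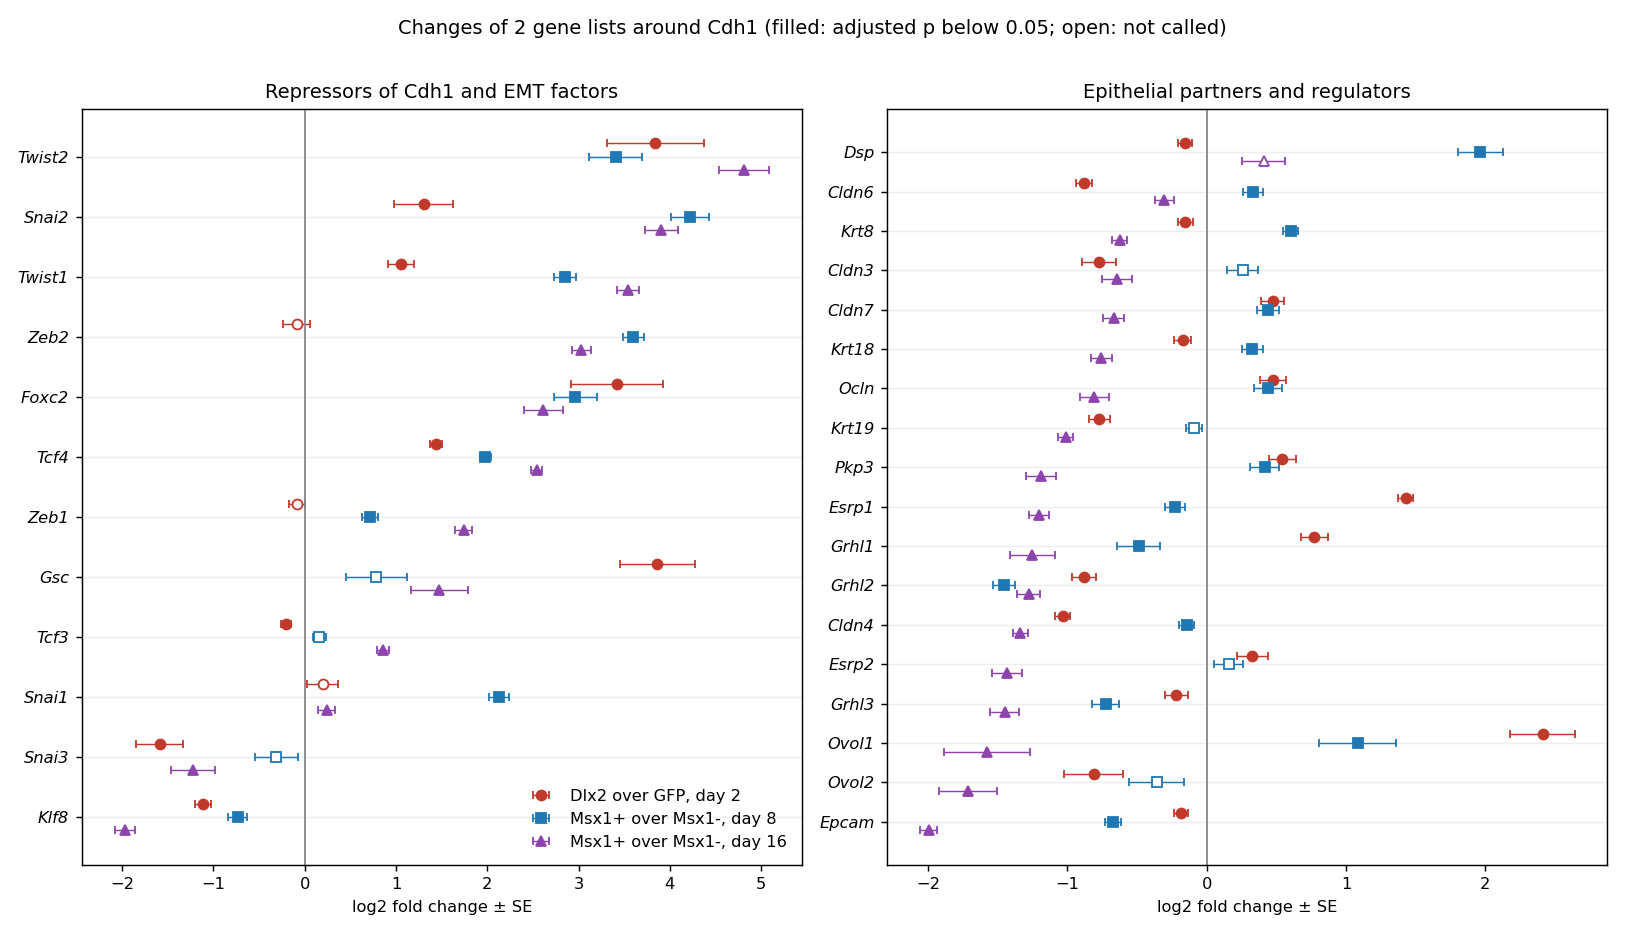
Log2 fold change ± SE (x axis) of 12 repressors and EMT factors (left) and 18 epithelial genes (right) in the day-2, day-8 and day-16 comparisons, 2 libraries against 2 in each; filled symbols were called. On the right, 17 of 18 genes are called lower at day 16 (triangles), while at day 8 (squares) 8 are called higher and 6 lower.

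Markers of other epithelia were mixed at day 16, beside 31.1% of all genes higher and 31% lower. The 6 surface ectoderm and epidermis markers summed to 120 to 130 CPM in Msx1+ cells of day 16, against 188 to 192 CPM in Msx1- cells, with 1 called higher and 2 lower and a median log2 change of 0.57, opposite in sign to the summed difference. The 6 trophectoderm markers summed to 103 to 106 CPM in Msx1+ cells, against 268 to 272 CPM in Msx1- cells, with 2 called higher and 3 lower (median -0.997), and the endoderm markers to 120 to 122 CPM, against 389 to 402 CPM in Msx1- cells, with 0 higher and 6 lower (median -1.56). None of these markers was at 0 in these libraries, and their part in the lower Cdh1 of Msx1+ cells was not tested. In the libraries labelled ES these sums were, in the same order, 95.2 to 106, 69.9 to 77.3 and 4.80 to 4.86 CPM.

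The proteases that mature and shed cadherins were partly higher, 4 of 8 at day 2 with 1 lower, 5 with 2 lower at day 8 and 5 with 3 lower at day 16 (medians 0.16, 0.53 and 0.31 beside 0.02, 0.06 and -0.02). Over all genes 34.1% were higher and 33% lower at day 2. The shares were 30.4% and 24.3% at day 8, and 31.1% and 31% at day 16. Pcsk5, a proprotein convertase, led each time (3.79 ± 0.18 at day 2, 4.2 ± 0.11 at day 8 and 3.27 ± 0.09 at day 16). It stood at 52.9 and 52.2 CPM in Msx1+ cells of day 16, against 5.14 and 5.74 CPM in Msx1- cells. Pcsk6, another convertase, was lower at day 8 (-1.15 ± 0.07) and day 16 (-1.11 ± 0.07). Furin, the convertase that matures many secreted proteins, rose by 1.30 ± 0.15 at day 8 and by 1.02 ± 0.15 at day 16, and Adam10, which sheds E-cadherin and N-cadherin, by 1.11 ± 0.05 at day 8.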

How the data were processed

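RNA from mouse ES cells, EBs and sorted EB cells was extracted with TRI Reagent and made into NEBNext Ultra libraries, per the labels' protocols, a kit that does not mark strand. The authors deposited raw read counts per gene symbol in 2 tables, and per the submitters' processing notes used fastp 0.20.0, HISAT2 2.1.0, DESeq2 1.18.1 and GRCm38. The counting program was not given in the sources used here, nor the annotation. Column names of the day-2 table give the line but not doxycycline; they were taken as the induced EBs because the study design compares overexpressing EBs. Among its symbols, 2 are duplicated.

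Each table was fitted whole with edgeR 4.0.16 (R 4.3.3, limma 3.58.1): filterByExpr (18650 genes at day 2, 22294 in the 8 sorted libraries, 22504 with ES), TMM scaling, robust glmQLFit and two-sided glmQLFTest, with Benjamini-Hochberg adjustment over all genes tested. The SE was taken as the size of the log2 change over the root of F, and can be too small at low counts. CPM of the sorted and ES libraries use the scaling of the 10-library fit. Ratios used a prior count of 0.5, likeness a prior count of 3. Coordinates and exon lengths come from GENCODE vM21, which matched 25603 and 53263 symbols of the day-2 and the other table, and the promoter from RefSeq. The fits were tested on simulated data. The alternatives were RLE or no composition scaling, other filters, DESeq2 1.42.0, a replicate block, other sets of libraries and leaving out each library. The cadherins and gene lists were chosen with earlier results of these data known. Of each list, at most the 3 called genes with the largest change in each direction are named, and the 3 genes most like each cadherin.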

Additional observations from a re-analysis of the deposited data

Results flagged for a closer look

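The difference between Msx1+ and Msx1- cells was itself tested for a change with time, and 4 of the 6 cadherins were called, each with a negative value at day 16 relative to day 8. For Cdh1 it changed by -0.94 (adjusted p = 2.09e-06), which is a larger deficit in Msx1+ cells at day 16. For Cdh4 it changed by -1.14 (adjusted p = 0.00022), from no called difference at day 8. For Cdh6 it changed by -3.53 (adjusted p = 2.63e-10) and for Cdh11 by -1.58 (adjusted p = 3.1e-07), which are smaller fold excesses in Msx1+ cells at day 16. In CPM the Cdh11 excess was larger at day 16. Its mean was 936 CPM in Msx1+ cells, against 27.8 in Msx1- cells, and at day 8 it was 155, against 1.55. The median of all genes in this test was -0.10.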

How the results depend on the processing

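Of the values and calls for single cadherins under other settings, 888 kept direction and call, 7 gained a call, 15 lost one and 8 turned sign. All of the sign changes were in small values. With library size alone these were Cdh1 at day 2 (0.013), Cdh4 between fractions at day 8 (0.041), Cdh3 in the change of the difference (-0.14) and Cdh4 of Msx1+ cells of day 8 against the libraries labelled ES (0.11). Cdh4 between fractions at day 8 ran from -0.273 without Msx1+ replicate 2 to 0.0282 without Msx1+ replicate 1. Against the libraries labelled ES, Cdh4 in Msx1+ cells of day 8 ran from -0.239 to 0.105 (0.0797 without Msx1+ replicate 1), and in Msx1- cells of day 8 from -0.126 to 0.215. Under that scaling the median over genes was 0.198 at day 2, 0.217 at day 8 and -0.284 for the change of the difference. There 1 cadherin was called lower at day 2, 1 at day 8, 0 for day 16 against day 8 in Msx1- cells and 1 for Msx1- cells of day 16 against ES, and 1088 genes were called higher in the change of the difference, against 2294. Of called genes, 63.6% were higher at day 2, 66.8% at day 8, 15.5% in the change of the difference, 34.7% for day 16 against day 8 in Msx1+ cells and 62.9% in Msx1- cells, against 50.8%, 55.6%, 35.9%, 46% and 52.5% with TMM. Leaving out 1 library gave 1 to 2 cadherins called lower at day 2, at day 8 and for Msx1- cells of day 16 against ES, and 0 to 1 for day 16 against day 8 in Msx1- cells. It gave 2176 to 3340 genes called lower for Msx1- cells of day 8 against ES, the lowest without Msx1- replicate 1. A lone library is assumed to vary like the others. Same-numbered libraries correlated from -0.05 to 0.12 in their deviations. With 2 libraries per group this cannot show whether libraries of the same number came from 1 culture. With the replicate block 3 cadherins were higher and 2 lower on both days, and 6661 genes higher at day 8, and no cadherin call changed. At day 2 the columns carry numbers that were not tied to single samples. Blocked by these (correlation 0.04), 6536 genes were higher and 6347 lower. DESeq2, RLE and other filters moved no count by over 1.5 times. Depth limits Cdh6 and Cdh11 in GFP EBs and in the libraries labelled ES, at 7 to 26 reads.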
